A study of Mus musculus with 10 samples.

Results

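AMP-activated protein kinase (AMPK) and the kinases that switch it on were followed at the messenger RNA level in mouse liver after the microRNA miR-122 was blocked. The set was defined by gene name and held 9 genes: the catalytic subunits Prkaa1 and Prkaa2, the beta subunits Prkab1 and Prkab2, the gamma subunits Prkag1 and Prkag2, and the upstream genes Stk11, Camkk2 and Cab39. These were 9 of the 18012 genes with a tested single-gene probe, and 11 probes measured them, because Prkab2 and Cab39 had 2 probes each. All 11 probes had a value on all 10 arrays and lay above the median level of all probes.

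Livers came from 5 mice that received an antisense oligonucleotide (ASO) against miR-122, as 50 mg/kg by intraperitoneal injection 2 times each week during 4 weeks, and from 5 mice that received saline on that schedule. Both groups were killed 2 days after their last injection. The ASO was an RNA oligonucleotide with 2′-O-methoxyethyl sugars and a phosphorothioate backbone, and each liver was hybridised to its own 1-colour CodeLink array. The labels of the ASO group name male C57Bl/6 mice, whereas those of the saline group give neither sex nor strain, and ages are not stated. Saline carries no oligonucleotide, so the chemistry of the ASO and the block of miR-122 cannot be told apart. The array of saline mouse 1 stood apart at its upper end, with a highest intensity of 542 against 1198 to 2333 on the other arrays.

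AMPK is the cell's sensor of low energy. Its catalytic alpha subunit is held by a beta subunit, which also binds glycogen, to a gamma subunit that binds AMP, ADP and ATP. The complex is switched on when LKB1 (the product of Stk11), working with the scaffold MO25 (Cab39) and a STRAD pseudokinase, or the calcium-dependent kinase CaMKK2 phosphorylates the alpha subunit. In hepatocytes active AMPK phosphorylates and inhibits acetyl-CoA carboxylase, which slows fatty acid synthesis and frees fatty acid oxidation. AMPK was reported to be active after miR-122 inhibition, and the question asked here was whether the messenger RNA of its subunits and upstream kinases differed between the groups. Arrays measure RNA, so phosphorylation and kinase activity were not measured.

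The gamma subunit genes Prkag2 and Prkag1 had the most negative log2 fold changes of the set (ASO minus saline). The 250 bases before their annotated start sites are therefore shown, as RefSeq gives them for GRCm38.p6, 5′ to 3′ on the strand of the gene, which is the minus strand in each case. Prkag1 has 1 such window in the table and Prkag2 has 3, and the single Prkag2 probe was not assigned to any of the 3 starts. Capitals mark matches on either strand to any of 5 motifs: the E-box, which is spelled CACGTG, the pentamer CCAAT, the GC box, which is spelled GGGCGG, the core site of ETS factors, spelled CGGAAG, and the TATA box, taken as TATAAA.
Prkag1 (chr15:98831509-98831758): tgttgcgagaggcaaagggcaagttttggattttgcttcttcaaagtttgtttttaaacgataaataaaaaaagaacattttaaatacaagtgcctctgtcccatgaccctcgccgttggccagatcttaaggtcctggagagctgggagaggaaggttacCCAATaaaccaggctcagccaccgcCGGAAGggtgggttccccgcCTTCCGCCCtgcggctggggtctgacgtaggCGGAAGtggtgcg
Prkag2 window 1 (chr5:25100643-25100892): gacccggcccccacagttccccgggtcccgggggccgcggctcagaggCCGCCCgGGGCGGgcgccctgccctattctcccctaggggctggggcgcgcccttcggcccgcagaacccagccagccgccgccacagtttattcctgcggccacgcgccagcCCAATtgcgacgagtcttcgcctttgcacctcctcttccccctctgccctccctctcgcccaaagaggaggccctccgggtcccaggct
Prkag2 window 2 (chr5:24995754-24996003): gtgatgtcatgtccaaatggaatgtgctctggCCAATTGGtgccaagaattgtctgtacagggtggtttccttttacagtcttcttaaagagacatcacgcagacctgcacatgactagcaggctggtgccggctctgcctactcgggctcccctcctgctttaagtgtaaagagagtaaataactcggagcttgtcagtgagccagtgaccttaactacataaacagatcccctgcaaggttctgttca
Prkag2 window 3 (chr5:24908510-24908759): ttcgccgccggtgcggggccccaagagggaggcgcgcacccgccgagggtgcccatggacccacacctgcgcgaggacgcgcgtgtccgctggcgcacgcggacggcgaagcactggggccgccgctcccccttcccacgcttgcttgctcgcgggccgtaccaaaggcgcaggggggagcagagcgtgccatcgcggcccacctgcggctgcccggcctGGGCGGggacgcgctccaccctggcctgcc

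The 4 windows differed in base composition and in motif content. The Prkag1 window held 3 ETS cores, 1 CCAAT box and 1 GC box, the last overlapping an ETS core, and its GC content was 51.6%. Among the Prkag2 windows, GC content was 73.2%, 48.4% and 77.2%, window 1 held 2 GC boxes and 1 CCAAT box, and window 3 held 1 GC box. The CCAAT match began 89 bases before the start in both the Prkag1 window and window 1 of Prkag2. The 2 CCAAT matches of window 2 lay on opposite strands and overlapped in part. None of the 4 windows held an E-box or a TATA box by these letters, which are in 6.02% and 12.4% of the 32851 windows of the table. CCAAT is in 33.8% of all windows, the GC box in 32.7% and the ETS core in 13.6%, and the median GC content of all windows is 52.4%. A match describes the letters only and marks no binding site.

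The messenger RNA of both gamma subunit genes of the set, Prkag2 and Prkag1, was lower in ASO livers at an unadjusted p under 0.05, and no member passed the adjusted test. Whole liver was measured, so fewer cells of a type and less RNA per cell cannot be told apart. Across the set, 0 of 11 probes passed the test at an adjusted p of 0.05 (limma with Benjamini-Hochberg, BH, adjustment over 36088 probes), where 23 of all probes (0.0637%) did. The smallest adjusted p of the set was 0.247. At an unadjusted p under 0.05 there were 2 member probes, Prkag2 and Prkag1, both lower in ASO livers. That is 18.2% of 11 probes, beside 6.66% of all probes lower and 11.2% of all probes in either direction. The median log2 fold change (ASO minus saline) of the 11 probes was -0.06, with 8 probes lower and 3 higher. The median was -0.003 over all probes and -0.09 over the 15504 probes within the members' range of brightness. In 0 of the 11 probes were the groups free of overlap, against 2.37% of all probes.

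**Figure D1:**
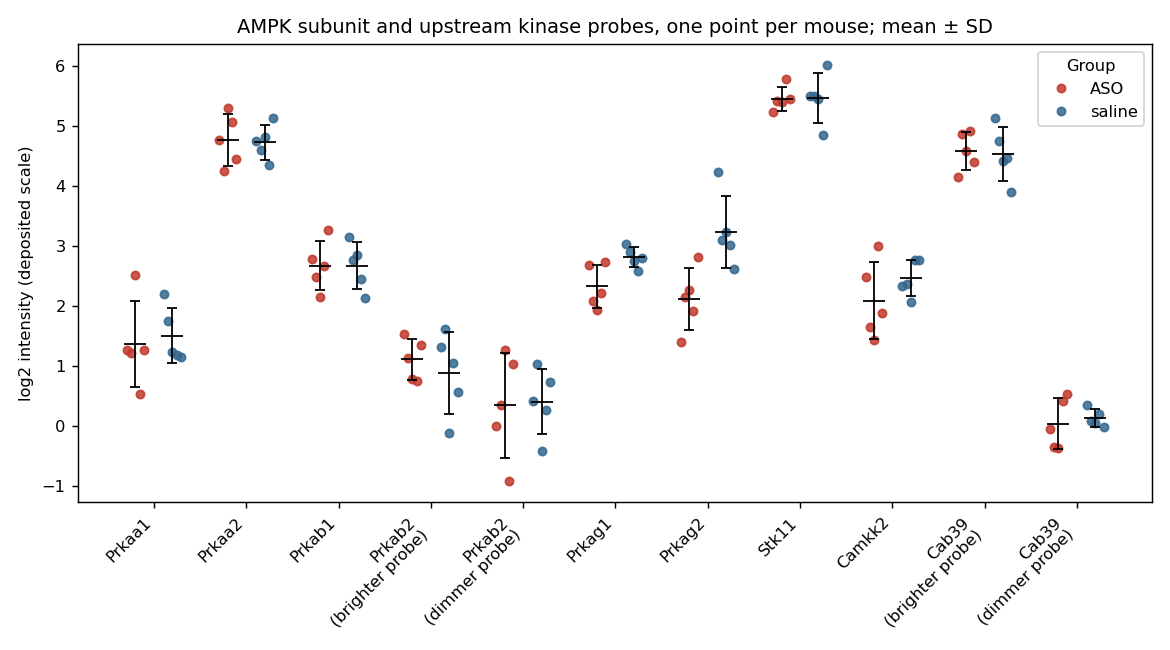
Log2 intensity (vertical axis, deposited scale) of the 11 member probes in each ASO mouse (left of each pair) and each saline mouse (right of each pair), with black bars for the mean ± SD of 5 mice. Prkag2 is the probe whose groups stand furthest apart, with 4 of 5 ASO mice below every saline mouse.

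Prkag2 encodes the gamma-2 subunit, whose human form is known for mutations that cause heart disease with glycogen storage. Prkag2 had log2 intensities of 1.41, 2.15, 2.28, 1.93 and 2.82 in ASO mice 1 to 5, against 4.23, 3.10, 3.23, 3.02 and 2.63 in saline mice 1 to 5. Of the ASO mice 4 lay below every saline mouse, and ASO mouse 5 lay above saline mouse 5, so the groups overlapped through that pair. Prkag2 averaged 2.12 ± 0.51 in ASO livers and 3.24 ± 0.60 in saline livers (SD, n = 5 each), a log2 fold change of -1.12 ± 0.32 (SE, 95% interval -1.82 to -0.43, limma adjusted p = 0.247). The geometric mean in ASO livers was thus 0.459 times that in saline livers, and the probe did not pass the adjusted threshold. Saline mouse 1 held the highest Prkag2 value, and without it the log2 fold change was -0.88. Over the 10 fits that each left out 1 array it was -1.30 to -0.88, with adjusted p of 0.155 to 0.510. Saline mouse 1, whose array had the low upper end, was not highest for Prkag2 alone. It also held the highest saline value of Prkag1 (3.04), Prkaa1 (2.21), Prkab1 (3.15) and both Cab39 probes (5.14 and 0.36). For the remaining member probes it did not. The part of this array in the group differences was not tested beyond leaving it out.

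Prkag1 encodes the gamma-1 subunit, the widely expressed form. Prkag1 had log2 intensities of 2.69, 2.08, 1.94, 2.21 and 2.74 in ASO mice 1 to 5, against 3.04, 2.90, 2.76, 2.58 and 2.81 in saline mice 1 to 5. All 5 ASO mice lay below the median of the saline mice and 3 lay below every saline mouse, and the overlap came from ASO mice 1 and 5 against saline mouse 4. Prkag1 averaged 2.33 ± 0.36 in ASO livers and 2.82 ± 0.17 in saline livers (SD, n = 5 each), a log2 fold change of -0.49 ± 0.20 (SE, 95% interval -0.92 to -0.06, limma adjusted p = 0.39). The unadjusted p was 0.0299. It was above 0.05 without ASO mouse 2, 3 or 4 or saline mouse 1 or 2, at up to 0.0722. After quantile and cyclic loess normalization the log2 fold change was -0.36 and -0.37, with unadjusted p of 0.0666 and 0.0846. The count of member probes at an unadjusted p under 0.05 was then 1 and not 2 in each of these fits but that without ASO mouse 4, where Camkk2 was the second.

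The 15504 probes within the members' range of brightness had a slightly negative median on the deposited scale, -0.09, against 0.02 after quantile normalization and 0.001 after cyclic loess. The log2 fold change of Prkag2 was -1.12 as deposited, -0.99 after quantile normalization and -1.01 after cyclic loess, each about as far from that median. The split of the 11 probes moved to 6 lower and 5 higher under both normalizations, because Prkab1 and Stk11, at -0.003 and -0.01 as deposited, changed sign.

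The catalytic subunit genes had log2 fold changes close to 0. Prkaa2 encodes alpha-2, the form that, with alpha-1 from Prkaa1, carries the kinase activity of the complex in hepatocytes. Prkaa2 had log2 intensities of 4.78, 4.25, 5.30, 5.07 and 4.45 in ASO mice 1 to 5, against 4.75, 4.60, 4.82, 4.35 and 5.14 in saline mice 1 to 5. The saline values lay inside the range of the ASO values, which reached both higher and lower. The log2 fold change was 0.04 ± 0.23 (SE, 95% interval -0.47 to 0.54, limma adjusted p = 0.973). Prkaa1 had log2 intensities of 1.28, 1.23, 2.53, 0.55 and 1.28 in ASO mice 1 to 5, against 2.21, 1.75, 1.24, 1.19 and 1.15 in saline mice 1 to 5. ASO mouse 3 was the highest of all 10 and ASO mouse 4 the lowest, and the log2 fold change was -0.14 ± 0.34 (SE, 95% interval -0.88 to 0.61, limma adjusted p = 0.912). The interval of Prkaa1 was wide enough to hold a change of 1.5-fold in either direction.

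Among the beta subunits, Prkab1 encodes beta-1 and Prkab2 beta-2, and both hold the complex together and bind glycogen. Prkab1 had log2 intensities of 2.78, 2.48, 2.15, 2.68 and 3.27 in ASO mice 1 to 5, against 3.15, 2.77, 2.86, 2.46 and 2.13 in saline mice 1 to 5. The groups covered nearly the same range, and the log2 fold change was -0.003 ± 0.25 (SE, 95% interval -0.54 to 0.54, limma adjusted p = 1). The brighter Prkab2 probe had log2 intensities of 1.53, 1.13, 0.79, 0.76 and 1.35 in ASO mice 1 to 5, against 1.31, 1.62, -0.11, 1.05 and 0.57 in saline mice 1 to 5. All 5 ASO mice lay inside the saline range, which saline mouse 3 widened at its low end. The brighter Prkab2 probe had a log2 fold change of 0.23 ± 0.31 and the dimmer -0.06 ± 0.40 (SE, limma, BH-adjusted p = 0.821 and 0.972), so the 2 probes differed in sign and both intervals held 0. At the dimmer probe ASO mouse 3 was highest at 1.27 and ASO mouse 4 lowest at -0.92.

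Upstream of AMPK, Stk11 encodes LKB1, the main AMPK kinase of hepatocytes. Stk11 had log2 intensities of 5.23, 5.42, 5.40, 5.79 and 5.44 in ASO mice 1 to 5, against 5.50, 5.51, 5.46, 4.85 and 6.02 in saline mice 1 to 5. The ASO values lay inside the saline range, whose ends were set by saline mice 4 and 5. The log2 fold change of Stk11 was -0.01 ± 0.21 (SE, 95% interval -0.48 to 0.46, limma adjusted p = 0.992). Cab39, the scaffold of LKB1, had at its brighter probe log2 intensities of 4.15, 4.86, 4.58, 4.92 and 4.41 in ASO mice 1 to 5, against 5.14, 4.75, 4.42, 4.46 and 3.90 in saline mice 1 to 5. Its brighter and dimmer probes had log2 fold changes of 0.05 ± 0.24 and -0.10 ± 0.21 (SE, limma, BH-adjusted p = 0.96 and 0.899), and at both the groups overlapped.

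Camkk2 encodes the calcium-dependent kinase that activates AMPK independently of LKB1. Camkk2 had log2 intensities of 2.49, 1.65, 1.44, 3.01 and 1.88 in ASO mice 1 to 5, against 2.34, 2.36, 2.07, 2.77 and 2.77 in saline mice 1 to 5. ASO mice 2, 3 and 5 lay below every saline mouse, and ASO mouse 4 was the highest of all 10. The mean was 2.09 ± 0.64 in ASO livers and 2.46 ± 0.30 in saline livers (SD, n = 5 each). The log2 fold change was -0.37 ± 0.29 (SE, 95% interval -1.01 to 0.27, limma adjusted p = 0.664), within the spread of the ASO mice. Over the fits that each left out 1 array it was -0.60 to -0.21. It was -0.60 without ASO mouse 4 (unadjusted p = 0.0353, adjusted p = 0.445) and -0.21 without ASO mouse 3 (unadjusted p = 0.491), so its size rested on single ASO mice.

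**Figure D2:**
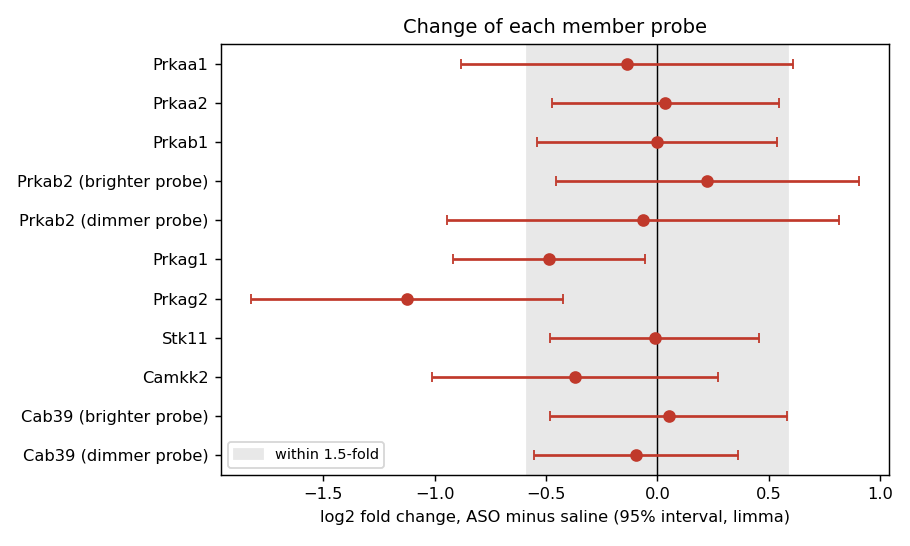
Log2 fold change (ASO minus saline, horizontal axis) of the 11 member probes with 95% intervals from limma, with the range within 1.5-fold either way shaded. The intervals of Prkag2 and Prkag1 lie below 0, and those of the other 9 probes hold 0.

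The series names 1.5-fold as the smallest change it was meant to detect, so the intervals were set against that size. As deposited, 5 of 11 intervals lay wholly within 1.5-fold in either direction, those of Prkaa2, Prkab1, Stk11 and both Cab39 probes, where 18.3% of all probes did. That share covers probes of every brightness, whereas all 11 member probes lay above the median level, and no share was computed for probes as bright as the members. The count of 5 was added after the data were seen and was sensitive to the setting. It was 1 under quantile and cyclic loess normalization, 3 with no floor, 4 with array weights, 7 with a pseudocount of 1, and 0 to 2 when 1 array was left out, with 0 without ASO mouse 4. No member probe stayed within 1.5-fold in every setting. Stk11 left that range only under quantile and cyclic loess normalization and without ASO mouse 4. Fits with 1 array left out rest on fewer mice, which by itself can widen an interval. Without those fits no probe stayed within either: after both normalizations only the dimmer Cab39 probe did, and with no floor it did not. The arrays thus did not settle for any member probe whether a change of this size took place.

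Paralogous subunits can replace each other in the complex. The within-mouse difference of log2 intensity between the 2 genes of the set for each subunit type was therefore compared between the groups. A difference between probes has no meaning as a level, and only its change between groups was tested. Prkag2 minus Prkag1 was -1.28, 0.07, 0.34, -0.29 and 0.08 in ASO mice 1 to 5, against 1.19, 0.20, 0.47, 0.44 and -0.18 in saline mice 1 to 5. All 5 ASO mice lay below the saline mean and 2 lay below every saline mouse. The mean was -0.21 ± 0.63 in ASO livers and 0.42 ± 0.50 in saline livers (SD, n = 5 each), a difference of -0.64 (exact permutation test over all splits of the 10 mice, two-sided, p = 0.119, adjusted p = 0.357 over 3 pairs). The smallest p this design allows is 0.00794. The difference was -0.37 without ASO mouse 1, and the test did not pass its threshold.

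For the alpha and beta pairs the groups overlapped more widely. Prkaa2 minus Prkaa1 averaged 3.40 ± 0.68 in ASO livers and 3.23 ± 0.57 in saline livers, a difference of 0.17 (SD, n = 5 each, exact permutation p = 0.690). It was 0.002 without saline mouse 1 and -0.11 without ASO mouse 4. Prkab2 minus Prkab1 averaged -1.56 ± 0.33 in ASO livers and -1.79 ± 0.71 in saline livers, a difference of 0.23 (SD, n = 5 each, exact permutation p = 0.619). It was -0.07 without saline mouse 3. The adjusted p over the 3 pairs was 0.690 for both.

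**Figure D3:**
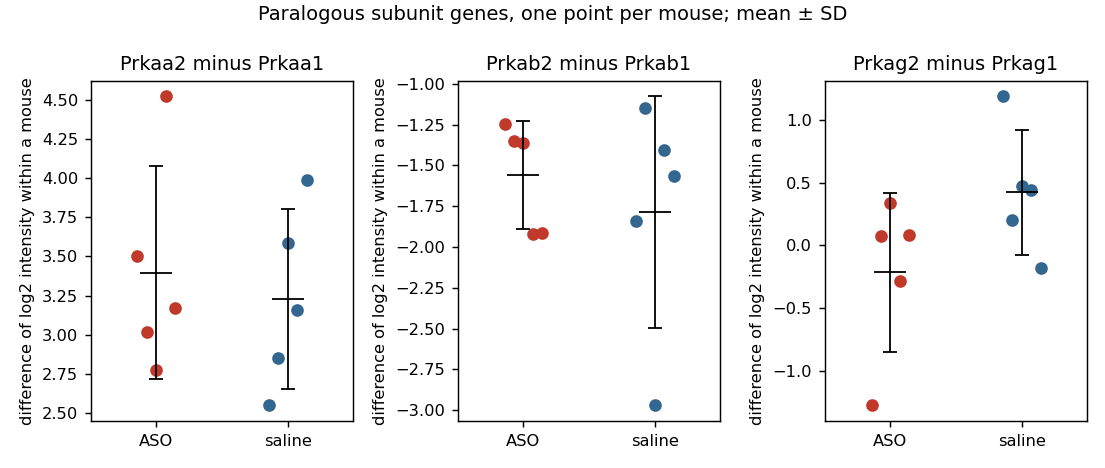
Difference of log2 intensity between paralogous subunit genes within each mouse (vertical axis), with ASO mice left and saline mice right in each panel and black bars for the mean ± SD of 5 mice. The gamma pair has the largest gap between group means, -0.64, and its groups overlap.

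Across the 10 arrays the member probes were not all alike. Over the 55 pairs of probes Pearson's r ran from -0.585 (Camkk2 with Prkaa1) to 0.706 (Prkab1 with the dimmer Cab39 probe), and Prkag2 with Prkag1 had 0.616. These values describe 10 arrays that share a scaling and, for the gamma pair, a group difference. Outside the set, the single genes whose log2 intensities over the 10 arrays were most like those of Prkag2, among 12070 probes searched, were Vamp7 (r = 0.959), Ints10 (r = 0.945) and Kdelr2 (r = 0.944). Their log2 fold changes were -0.46 ± 0.20, -0.61 ± 0.23 and -1.11 ± 0.34 (SE, limma, BH-adjusted p = 0.435, 0.371 and 0.279). These genes were picked for the highest r of that search, and the group difference was left in the values.

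The genes around AMPK were counted by role, on lists chosen with earlier results of these data known. Each gene was represented by its brightest probe. Over 8 lists with 92 genes, 82 were measured and 0 passed the adjusted threshold. At an unadjusted p under 0.05 in limma, 6 were higher (7.32%) and 12 lower (14.6%) in ASO livers, beside 4.58% and 6.66% of all probes. In the lists that follow, counts of higher and lower genes are at that unadjusted p. The median log2 fold change was -0.09, beside -0.003 over all probes and -0.09 over the 15504 probes within the members' range of brightness. A list of reported miR-122 targets was counted apart and is given with the checks of the labels. Gys1 is on that list and also among the direct AMPK substrates, so the 6 higher genes include it.

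Of the remaining gamma subunit (Prkag3), LKB1 partners and upstream kinases, 5 of 6 were measured. At an unadjusted p under 0.05 there were 0, and the median was -0.17. Cab39l, a second form of MO25, had a log2 fold change of -0.23 ± 0.18, Strada, the pseudokinase that activates LKB1, at its brighter probe 0.28 ± 0.22, and Map3k7, which encodes the kinase TAK1, -0.21 ± 0.17 (SE, limma, BH-adjusted p = 0.657, 0.664 and 0.679). These small values moved with single arrays: Cab39l was at -0.10 without saline mouse 1, Strada at 0.13 without ASO mouse 5 and Map3k7 at -0.13 without ASO mouse 5. Regulators of AMPK had 11 of 13 measured, 1 lower and 0 higher, and a median of -0.01. The lower gene was Ppm1b, a protein phosphatase of the PP2C family, members of which can remove the activating phosphate of AMPK. Its brighter probe averaged 3.91 ± 0.36 in ASO livers and 4.85 ± 0.30 in saline livers (SD, n = 5 each), a log2 fold change of -0.94 ± 0.22 (SE, limma, BH-adjusted p = 0.171), and the groups did not overlap, as in 1.43% of all probes with ASO lower. Its dimmer probe had -0.06 ± 0.24 (SE). Axin1, a scaffold that brings LKB1 to AMPK, had -0.48 ± 0.23 and Fnip2, a partner of folliculin, -0.32 ± 0.28 at its brighter probe (SE, adjusted p = 0.467 and 0.686). Without ASO mouse 3 Axin1 had -0.28, and without saline mouse 4 Fnip2 had -0.16.

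Among direct AMPK substrates 23 of 26 were measured, 3 higher and 5 lower at an unadjusted p under 0.05, with a median of -0.10. Acacb, the acetyl-CoA carboxylase whose product restrains fatty acid entry into mitochondria, averaged 4.41 ± 0.67 in ASO livers and 5.56 ± 0.41 in saline livers (SD, n = 5 each), a log2 fold change of -1.15 ± 0.32 (SE, limma, BH-adjusted p = 0.238). Srebf1, which encodes a transcription factor of lipid synthesis, had -1.33 ± 0.28 (SE, adjusted p = 0.137) at its brighter probe and 0.14 at its dimmer probe, which lay at or near the floor. Pfkfb3, which makes the activator of phosphofructokinase, was the gene with the largest difference in the other direction, with 0.42 ± 0.35 in ASO livers and -0.78 ± 0.82 in saline livers, a log2 fold change of 1.20 ± 0.36 (SE, adjusted p = 0.264). The other 5 are named after their values were seen. Gys1 and Pfkfb2 were higher, by 0.91 ± 0.31 and 0.48 ± 0.20, and Gys2, Tbc1d1 and Hdac5 had -0.66 ± 0.25, -0.67 ± 0.26 and -0.51 ± 0.21 (SE).

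LKB1 activates further kinases related to AMPK, of which 10 of 12 were measured, with 0 higher and 2 lower and a median of -0.14. The lower genes were salt-inducible kinases that act on the control of glucose production: Sik1 had a log2 fold change of -0.99 ± 0.31 and Sik3 -0.49 ± 0.22 (SE, limma, BH-adjusted p = 0.279 and 0.439). Sik1 had an unadjusted p under 0.05 in all 17 alternatives, and Sik3, at 0.0471, in 4 of 17, losing it after both normalizations. Mark2, a kinase of cell polarity, had 0.31 ± 0.16 (adjusted p = 0.517). In the mTORC1 and TSC list 10 of 11 were measured, 1 higher and 1 lower, with a median of 0.15. Tbc1d7, a subunit of the TSC complex, had 0.72 ± 0.24 and Akt1s1, the mTORC1 subunit PRAS40, -1.19 ± 0.40 (SE, adjusted p = 0.301 and 0.299). For Akt1s1, 2 ASO mice were at the floor and ASO mouse 1, at 0.03, lay above every saline mouse, and with a pseudocount of 1 the log2 fold change was -0.37. Rptor, the mTORC1 scaffold, had 0.55 ± 0.28 (adjusted p = 0.493) at the brightest of its 4 probes, and 0.36 without ASO mouse 3.

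AMPK promotes autophagy through ULK1. The list for the start of autophagy also holds Map1lc3b and Sqstm1, which are not initiation genes. Its genes were all measured, 13 of 13, with 2 higher and 0 lower and a median of 0.004. Atg13, a subunit of the ULK1 complex, had a log2 fold change of 0.51 ± 0.20 and Sqstm1, which encodes the cargo receptor p62, 0.40 ± 0.18 (SE, limma, BH-adjusted p = 0.372 and 0.444). An unadjusted p under 0.05 was kept by Atg13 in 16 of 17 alternatives and by Sqstm1, at 0.0499, in 6 of 17. Atg101, another subunit of that complex, had -0.65 ± 0.31 (adjusted p = 0.452), and -0.32 without ASO mouse 1. The groups did not overlap for Atg101, with ASO lower, or for Atg13, with ASO higher. This held for 2.37% of all probes in either direction. In the PGC-1 and sirtuin list 7 of 7 were measured and 0 had an unadjusted p under 0.05, with a median of -0.11. Tfam, Esrra and Sirt1, which encode a mitochondrial transcription factor, an orphan nuclear receptor and a deacetylase, had -0.27 ± 0.16, -0.29 ± 0.19 and -0.27 ± 0.33 (SE, adjusted p = 0.547, 0.593 and 0.797). Sirt1 was at -0.09 without saline mouse 1, and Esrra at -0.43 without ASO mouse 4.

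Of lipid and glucose genes that AMPK activity lowers in liver, 8 of 9 were measured, 0 higher and 3 lower, with a median of -0.55. The 3 were the lipid synthesis genes Acly, Scd1 and Elovl6, with log2 fold changes of -1.94 ± 0.42, -1.10 ± 0.25 and -1.70 ± 0.49 (SE, limma, BH-adjusted p = 0.151, 0.168 and 0.255). Saline mouse 1 held the highest value of each, at 4.51, 4.19 and 6.51. When 1 array was left out, their log2 fold changes were -2.27 to -1.67, -1.19 to -0.94 and -1.95 to -1.32. The gluconeogenic genes of the list had log2 fold changes of 0.13 ± 0.24 (Pck1) and -0.16 ± 0.18 (G6pc), chosen after their values were seen. Acly passed the threshold where the fit was limited to probes brighter than the median (adjusted p = 0.0471).

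**Figure D4:**
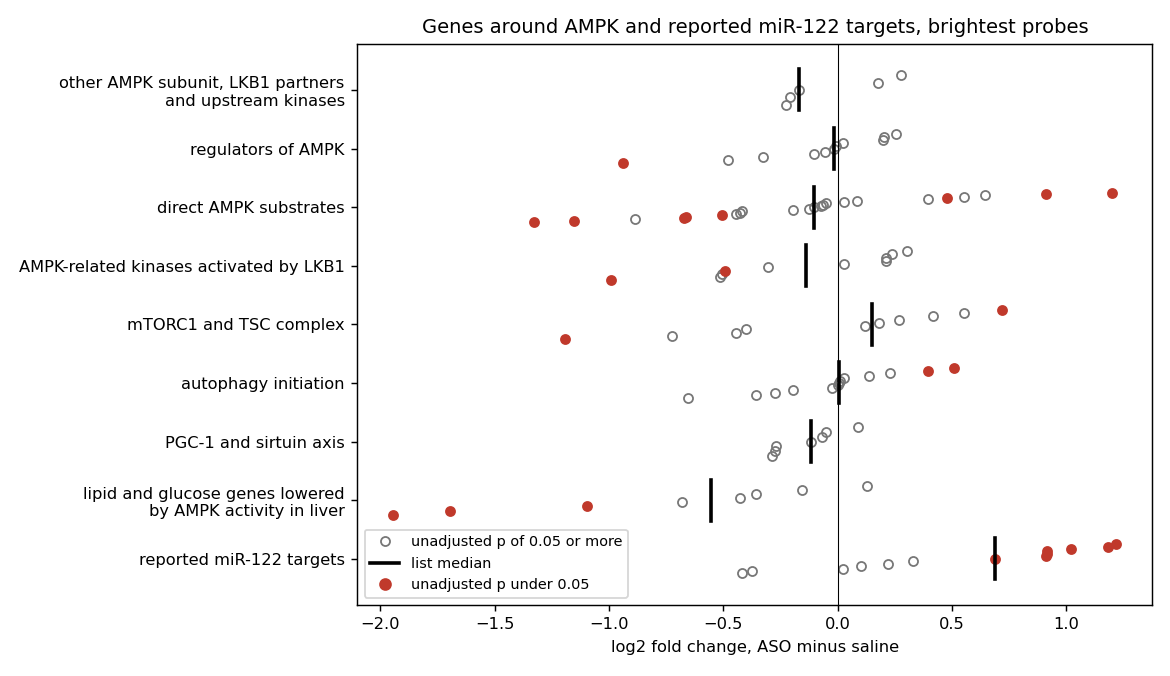
Log2 fold change (ASO minus saline, horizontal axis) of each measured gene on the 8 lists around AMPK and, in the bottom line, on the list of reported miR-122 targets, 1 point per gene at its brightest probe, filled where the unadjusted p was under 0.05, with the list median as a black bar. Most lists have medians between -0.17 and 0.15, and the lists of lipid and glucose genes (-0.55) and of reported miR-122 targets (0.69) lie outside that range.

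The arrays were checked against what the labels say. The hepatocyte genes Alb, Apoa1, Ttr and Cyp2e1 averaged 10.3 to 10.4 in ASO livers and 9.80 to 9.90 in saline livers on the log2 scale, at the bright end of the arrays. The saline means include saline mouse 1, the array with the lower upper end, where these 4 genes were at 8.86 to 8.89 against 9.63 to 10.4 in the other saline mice. The other measured hepatocyte markers, Arg1 and Hnf4a, had 7.70 and 5.97 in ASO livers and 8.03 and 6.10 in saline livers, log2 fold changes of -0.32 ± 0.16 and -0.13 ± 0.18 (SE), and 4 of 5 ASO mice lay below every saline mouse for Arg1. None of the 6 had an unadjusted p under 0.05. Of the reported miR-122 targets 13 of 14 were measured. At an unadjusted p under 0.05, 7 were higher and 0 lower, beside 4.58% and 6.66% of all probes. Among the 7, Slc35a4, Bckdk (brighter probe) and Gpx7 had log2 fold changes of 1.19 ± 0.22, 1.22 ± 0.25 and 1.02 ± 0.23 (SE, limma, BH-adjusted p = 0.110, 0.134 and 0.168). The dimmer Bckdk probe had -0.12 ± 0.27 (SE). The other 4 were Ndrg3, Cd320, Gys1 and Tmed3, named after their values were seen. Published target lists may rest in part on these mice, and the direction of the list is not supported independently here.

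Markers of other liver cells were counted at an unadjusted p under 0.05, where 6.66% of all probes were lower and 4.58% higher, and several counts rest on 1 gene. Of 6 measured Kupffer cell and macrophage markers 2 were lower (Mpeg1 and Cd163). The summed intensity of the list was 28.1 to 76.2 (median 55.4) in ASO livers and 57.9 to 107 (median 60.8) in saline livers. Of 6 lymphocyte markers 2 were lower, with sums of 5.47 to 9.52 (median 7.91) in ASO livers and 8.34 to 13.4 (median 10.1) in saline livers. Only 2 of these 6 markers lay above the median level of all probes. Of 6 endothelial markers 1 was higher (sums of 34.6 to 113 in ASO livers and 50.6 to 89.8 in saline livers), and of 6 stellate cell markers 0 were counted. Bile duct, skeletal muscle and pancreas markers had 1 lower each, red blood cell and adipocyte markers 0, and 0 markers of any list passed the adjusted threshold or lay at the floor on every array. The part of these cells in the Prkag2 and Prkag1 values was not tested.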

How the data were processed

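Liver RNA of 10 mice (5 ASO, 5 saline) was labelled with biotin and hybridised to 1-colour CodeLink arrays, per the labels' protocols. The deposited values are intensities on a linear scale, with array medians of 1.03 to 1.05. No source used here gives the background correction, scaling or software. Groups come from the sample titles, and replicate numbers follow accession order and pair no mice. Each sample is the liver of a separate mouse, per the series' design text.

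Of 36227 probes, 139 with fewer than 3 values in a group (115 of them empty) were left out, leaving 36088. A floor at the 10th percentile of positive values (0.192, or -2.38 after log2) was applied before taking log2. Fold changes are ASO minus saline, fitted two-sided with limma 3.58.1 (lmFit, eBayes) in R 4.3.3, with p-values adjusted over all probes by Benjamini-Hochberg and called at 0.05. No batch is given in the labels. Probe genes come from the platform annotation, in which 21615 probes have 1 gene, 681 several and 13931 none. Of the single-gene probes 21487 matched RefSeq genes by Entrez ID (GRCm38.p6), 0 changed symbol and 128 had no match. Only single-gene probes were used, and 0 probes of several genes held a member.

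Named were all members, up to 3 genes of each list with the smallest p at the brightest probe, and the 3 genes most like the member of smallest p. The members, lists and tests were chosen with earlier results of these data known. Alternatives were quantile and cyclic loess normalization, array weights, no floor, a pseudocount of 1, the brighter part of the probes (mean above the median), a trended and robust eBayes, and each array left out in turn. Isoform pairs were also computed on averaged probes per gene. The fit was tested on simulated data. Its recovery there was 1.49% for shifts of 1.5-fold, 17.9% at 2-fold and 81.8% at 4-fold. Most simulated shifts of 1.5-fold or 2-fold were thus missed, so a probe that did not pass may still differ by that size. The number of arrays limits the precision.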

Additional observations from a re-analysis of the deposited data

Results flagged for a closer look

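In 10 of 92 groups of 5 mice, over member and named probes, a single mouse stood far from the others on the log2 scale, where chance gives about 1 group in 20. None of the 10 was a member probe. In ASO livers, Ppm1b at its brighter probe was 4.54 in mouse 1, against 3.67 to 3.87 in the others, and Acly was 2.80 in mouse 1, against 0.97 to 1.46. Atg101 was 0.82 in ASO mouse 1, against 2.40 to 2.59. Axin1 was -0.66 in ASO mouse 3, against 0.28 to 0.45, and without that mouse its log2 fold change was -0.28. The brighter Bckdk probe was 2.72 in ASO mouse 3, against 3.67 to 3.88.

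In saline livers, Cab39l was 4.85 in mouse 1, against 4.17 to 4.35 in the others. Tbc1d7 was 3.76 in saline mouse 3, against 4.63 to 4.89. Gpx7 was 0.25 in saline mouse 4, against -0.71 to -0.55. The brightest Rptor probe was -0.36 in saline mouse 4, against 0.22 to 0.38, and the dimmest was -1.92 in saline mouse 2, where the other 4 mice were at the floor of -2.38.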

How the results depend on the processing

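Under all 17 alternatives 0 of 11 member probes passed the adjusted threshold, and Prkag2 and Prkag1 kept their negative sign. The count of member probes at an unadjusted p under 0.05 was 1 after either normalization, quantile or cyclic loess, and 1 to 2 when 1 array was left out. Over all probes the count past the adjusted threshold was 39 with cyclic loess, 42 with trend and robust, 7 without a floor and 73 on the probes brighter than the median, against 23 as reported, 21 with array weights, 25 with quantile normalization and 26 with a pseudocount of 1, and 0 to 16 when 1 array was left out. The count at an unadjusted p under 0.05 on the 8 lists around AMPK was 15 to 20 when 1 array was left out, against 18, and with the reported miR-122 targets it was 20 to 27, against 24. On those brighter probes, where fewer are tested, Acly (adjusted p = 0.0471) and Slc35a4 (adjusted p = 0.0445) passed.

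The sign turned under quantile normalization for Prkab1 (0.13) and Stk11 (0.15), under cyclic loess for Prkab1 (0.12) and Stk11 (0.10), and with array weights for the brighter Cab39 probe (-0.014). When 1 array was left out, log2 fold changes were -0.15 to 0.13 for Prkab1, -0.17 to 0.13 for Stk11, -0.11 to 0.20 and -0.22 to 0.0042 for the brighter and dimmer Cab39 probes, -0.43 to 0.070 for Prkaa1 and -0.10 to 0.17 for Prkaa2. They were -0.025 to 0.41 and -0.29 to 0.25 for the brighter and dimmer Prkab2 probes. The differences in change were -0.11 to 0.36 for the alpha pair, -0.069 to 0.39 for the beta pair and -0.79 to -0.37 for the gamma pair. For Camkk2 the log2 fold change was -0.60 to -0.21. The causes were not tested. No paired analysis was made, because each array is a separate mouse and the titles match no mice between the groups. The number of arrays limits what a probe that did not pass can show.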

Other observations

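The PP2C phosphatase genes Ppm1a and Ppm1b differed between their own probes. Ppm1a was picked with its values known and had a log2 fold change of -0.10 ± 0.15 at its brighter probe and 0.64 ± 0.20 at its dimmer probe (SE, limma, BH-adjusted p = 0.836 and 0.276). At the dimmer Ppm1a probe the mean was 4.31 ± 0.29 in ASO livers and 3.67 ± 0.28 in saline livers (SD, n = 5 each), and the groups did not overlap, whereas the brighter Ppm1b probe had lower values in ASO livers.

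The glycogen synthase genes had log2 fold changes of opposite sign, and neither passed the adjusted threshold. Gys1, the form of muscle and most tissues and a reported miR-122 target, had a log2 fold change of 0.91 ± 0.31, and Gys2, the liver form, had -0.66 ± 0.25 (SE, limma, BH-adjusted p = 0.318 and 0.357). Both were chosen after their values were seen, and the difference between them was not tested.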
